A study of Caenorhabditis elegans with 8 samples.

Results

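The nlp genes of the nematode Caenorhabditis elegans encode precursors of neuropeptides, and 62 of them were compared between arrested first-stage larvae of the mutant strain HBR227 and of the wild-type strain N2. The members were all rows of the gene count table named nlp- and a number, except 14 rows, nlp-8, nlp-14, nlp-22 and nlp-24 to nlp-34, most of which are epidermal antimicrobial peptide genes. This gave 62 of 76 nlp rows and of 46433 rows in all. HBR227 has the genotype aptf-1(gk794), and N2 is the wild type. Whole larvae of both strains came from eggs freed by hypochlorite, were kept in M9 buffer, which holds no food, and were taken after 48 hours, so all 8 samples share starvation. This is L1 arrest, the state in which newly hatched larvae stop developing. Each strain had 4 libraries, A to D, which the labels call biological replicates without naming the cultures they came from, so each p-value sets the strains against library spread that may be partly technical. The mutant group is 1 strain with 1 allele.

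A neuropeptide precursor is cut in the secretory pathway by convertases, trimmed by carboxypeptidases and often amidated, and its peptides are stored in dense-core vesicles and released to act mostly on G protein-coupled receptors. In C. elegans the nlp genes gather families that lack the peptide ending of the flp genes and the fold of the insulin-like genes. Most are expressed in neurons and some in the intestine or other tissues, and their peptides act in movement, egg laying, defecation, arousal and sleep. aptf-1 encodes an AP-2 transcription factor needed for the sleep function of the neuron RIS, and flp-11 is the RIS peptide gene that depends on it. The comparison asks which of the nlp transcripts differ in arrested larvae that carry this aptf-1 allele.

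The strain labels fitted the level of the mutated gene. aptf-1 had counts of 33, 69, 56 and 52 in the HBR227 libraries and of 161, 196, 182 and 234 in the N2 libraries, each in the order A to D, a log2 fold change of -1.92 ± 0.16 (SE; adjusted p = 1.1e-04). flp-11 averaged 44.9 ± 1.87 CPM in HBR227 and 152.7 ± 8.18 CPM in N2 (SD, n = 4 each; log2 fold change -1.77 ± 0.06, adjusted p = 5.7e-07). Here CPM are counts per M (mega-count) of TMM-scaled library size, log2 fold changes are HBR227 minus N2 with their SE, and a gene was called at a Benjamini-Hochberg adjusted p under 0.05 in edgeR's quasi-likelihood test over 17522 genes. Total counts were 48.4 to 65.0 M in HBR227 libraries and 43.6 to 56.4 M in N2 libraries. HBR227 A stood apart. Across genes, which are not independent replicates, its log2 levels correlated at 0.972 to 0.973 with the other HBR227 libraries, which correlated at 0.994 or more among themselves. Counts of members are therefore also given without it.

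Transcripts of 26 nlp genes rose in HBR227 by small amounts, and no member was called lower. Of the 62 members 59 had enough counts to be tested; besides the 26 called higher, 0 were called lower and 33 were not called. Among all genes tested 11.2% were called higher and 10.4% lower. The median log2 fold change was 0.23 over the tested members and -0.0032 over all genes tested, and 48 members had a positive and 11 a negative value. All 4 HBR227 libraries lay above all 4 N2 libraries at 32 members, where 14.5% of all genes tested did so, and below them at 2 members, nlp-63 and nlp-66, where 14.4% of all genes did so. The called rises ran from 0.18 to 0.79 on the log2 scale, 5 of them reached 1.5-fold and 0 reached 2-fold. Beside the 0 lower calls of edgeR, limma voom called 0 members lower and DESeq2 called 1, nlp-63, and 2 members, nlp-63 and nlp-77, were lower at an unadjusted p under 0.05.

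**Figure D1:**
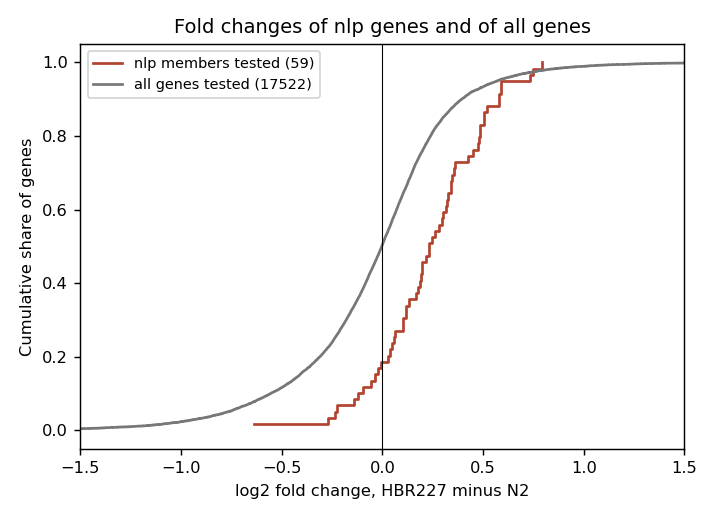
Cumulative share of genes (vertical axis) by log2 fold change, HBR227 minus N2 (horizontal axis, which ends at 1.5 on either side of 0), for the 59 tested nlp members and for all 17522 genes tested. The members' line lies to the right of the line of all genes over most of the range, with medians of 0.23 and -0.0032.

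Without HBR227 A, 60 members were tested, 36 were called higher and 3, nlp-63, nlp-66 and nlp-77, were called lower, where 21% of all genes were called higher and 23.3% lower. All 26 members called higher with 8 libraries were called higher again. The 10 that joined them were nlp-1, nlp-16, nlp-17, nlp-38, nlp-51, nlp-56, nlp-57, nlp-70, nlp-71 and nlp-78. With total counts alone as the scale, 21 members were called higher and 5 lower, where 1174 of 17522 genes were called higher and 3111 lower. On that scale the members' median was 0.13 where that of all genes was -0.11. The difference between these medians was 0.24 with either scaling. The neuron markers rab-3, snb-1, unc-64, ric-4, snt-1, unc-10, unc-13, unc-18, unc-104 and rgef-1 summed to 1159 to 1337 CPM in HBR227 libraries and 1131 to 1214 CPM in N2 libraries. The lowest HBR227 sum was that of HBR227 A, and the other HBR227 libraries lay above all N2 libraries. Of these 10 markers 1, unc-13, was called higher, where 11.2% of all genes tested were. All 10 had a mean of at least 20 CPM, a level at which 20.9% of all genes were called higher. Without HBR227 A 5 were called higher, where 21% of all genes were. The part of the neuron markers in the members' shift was not tested. In whole larvae, more cells of a type and more RNA per cell cannot be told apart.

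**Figure D2:**
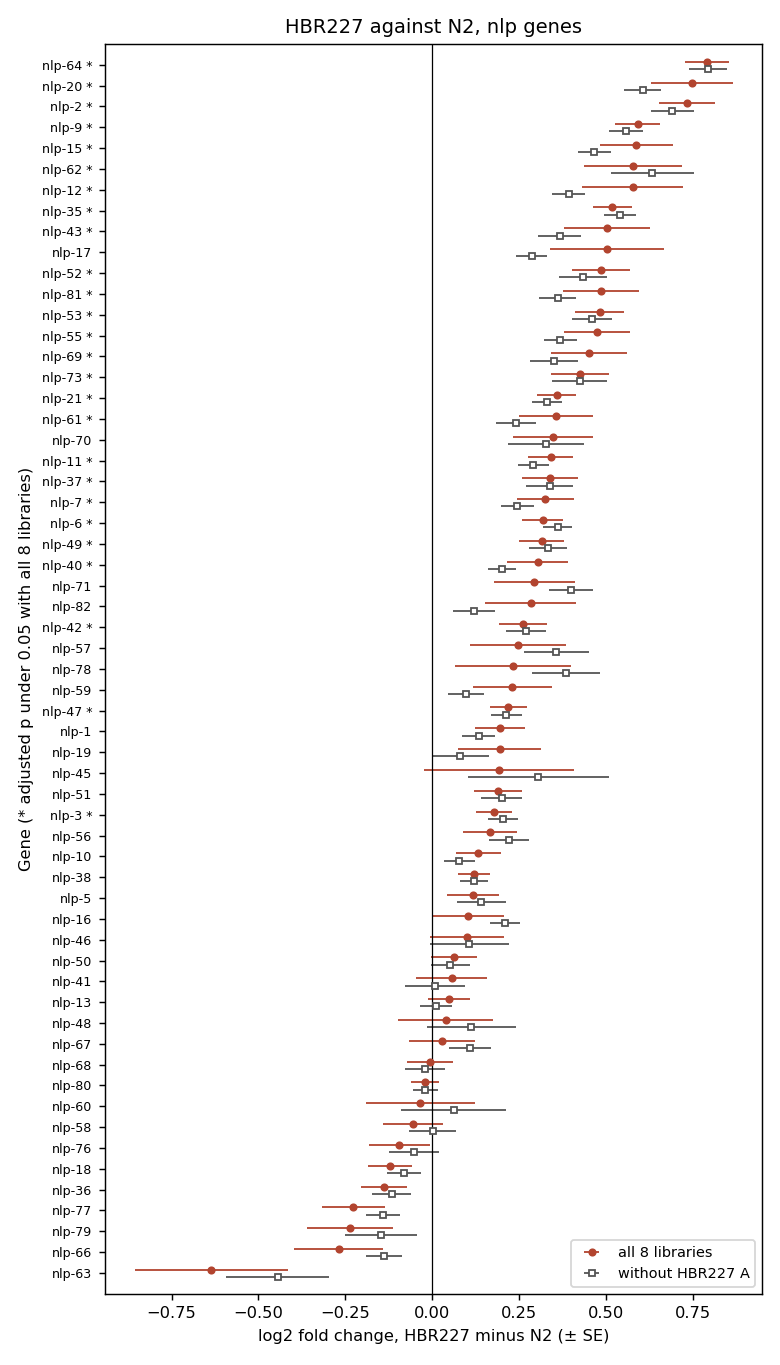
Log2 fold change, HBR227 minus N2, with its SE (horizontal axis) for the 59 tested nlp genes, ordered by value. Red circles use all 8 libraries and open squares leave out HBR227 A; an asterisk marks the 26 genes called with all 8 libraries, all of which lie right of 0 in both fits.

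The largest rise was that of nlp-64 (chromosome X, 308762 to 311311, minus strand, WBcel235). It had 33.5, 32.9, 34.7 and 32.9 CPM in HBR227 A to D, against 20.4, 18.7, 19.8 and 18.5 CPM in N2 A to D. The groups were far apart relative to their spread, and HBR227 A was like the other mutant libraries. The log2 fold change was 0.79 ± 0.06 (adjusted p = 8.2e-05), the smallest adjusted p among the members.

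nlp-2 encodes RPamide peptides, which promote wakefulness through receptors related to the gonadotropin-releasing hormone receptor, and it also rose. nlp-2 had 38.7, 32.9, 36.1 and 34.1 CPM in HBR227 A to D, against 22.3, 19.1, 22.8 and 21.04 CPM in N2 A to D. The lowest mutant library lay well above the highest wild-type one, and the log2 fold change was 0.73 ± 0.08 (adjusted p = 0.000372). nlp-2 lies in a run of 4 nlp genes on the minus strand of chromosome X, with nlp-45 at 2337600 to 2338310, nlp-22 at 2341359 to 2342089, nlp-23 at 2342391 to 2342959 and nlp-2 at 2343947 to 2344766. The neighbours were expressed far lower. nlp-23, another RPamide gene, had 5, 4, 7 and 10 counts in HBR227 A to D, against 3, 21, 4 and 6 counts in the N2 libraries, too few to be tested. nlp-45, named after its values were seen, averaged 1.19 ± 0.202 CPM in HBR227 and 1.05 ± 0.278 CPM in N2 (SD, n = 4 each; adjusted p = 0.568). nlp-22, the RPamide gene known for promoting sleep and not a member, averaged 0.140 ± 0.130 CPM in HBR227 and 0.479 ± 0.181 CPM in N2 (SD, n = 4 each; adjusted p = 0.0736). Its log2 fold change was -1.70 ± 0.61, and it was called lower without HBR227 A.

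nlp-20 encodes peptides of the FAFA family, which it shares with nlp-18. It had 46.5, 31.5, 34.2 and 32.8 CPM in HBR227 A to D, against 22.4, 21.2, 22.01 and 20.8 CPM in N2 A to D, with HBR227 A well above the rest. nlp-20 rose by a log2 fold change of 0.75 ± 0.12 (adjusted p = 0.00217), which was 0.61 without HBR227 A. nlp-18, the other FAFA gene, had 122, 128, 142 and 140 CPM in HBR227 A to D, against 149, 134, 146 and 152 CPM in N2 A to D. These groups overlapped, and the difference of -0.12 ± 0.06 was not called (adjusted p = 0.202), although it was called lower on the scale of total counts.

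**Figure D3:**
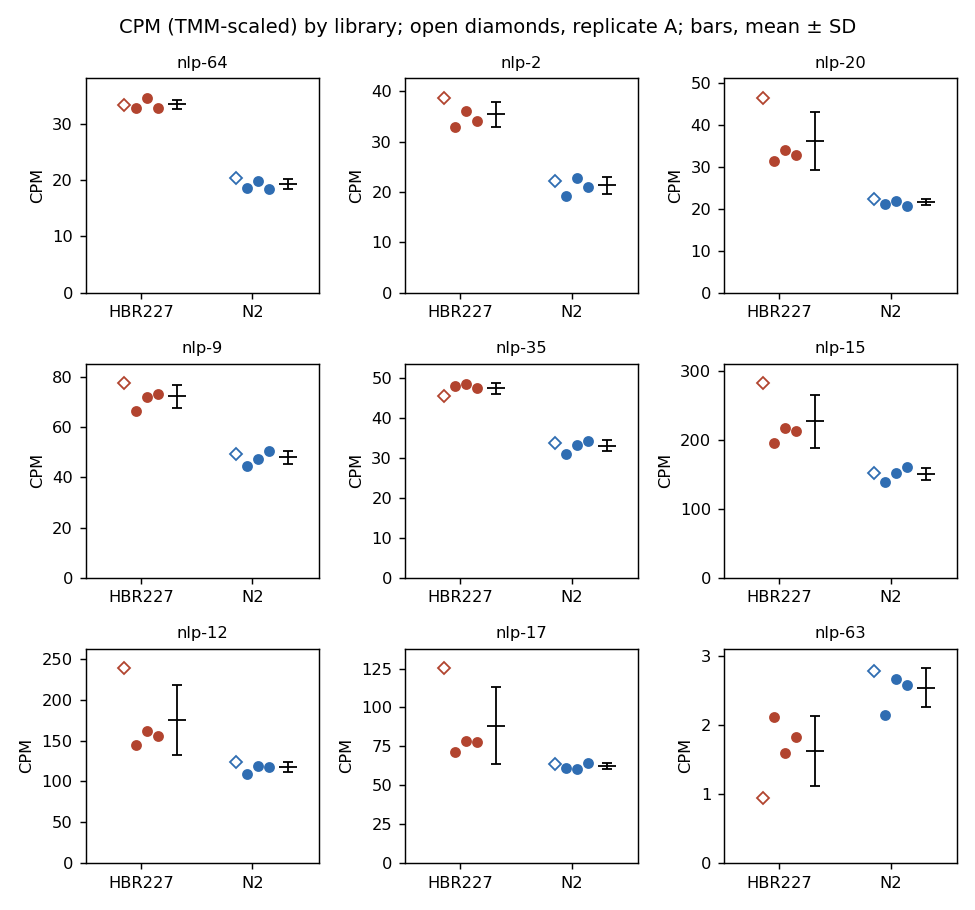
TMM-scaled CPM (vertical axes, from 0) in each library for 9 nlp genes, with HBR227 left and N2 right; open diamonds are replicate A of either strain, filled circles B to D, and bars the mean with SD of 4 libraries. nlp-64, nlp-2, nlp-9 and nlp-35 show mutant libraries close together, whereas HBR227 A is the highest library for nlp-20, nlp-15, nlp-12 and nlp-17 and the lowest for nlp-63.

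nlp-9, nlp-35 and nlp-53 rose with little spread among mutant libraries. nlp-9 had 77.7, 66.4, 72.2 and 73.1 CPM in HBR227 A to D, against 49.5, 44.7, 47.5 and 50.4 CPM in N2 A to D (0.59 ± 0.06, adjusted p = 0.000344). It lies on chromosome V, 14185 bases from nlp-13, which averaged 109 ± 6.99 CPM in HBR227 and 105 ± 5.08 CPM in N2 (SD, n = 4 each) and was not called. nlp-35 had 45.4, 47.9, 48.5 and 47.5 CPM in HBR227 A to D, against 33.8, 30.9, 33.3 and 34.2 CPM in N2 A to D (0.52 ± 0.06, adjusted p = 0.000372). In nlp-35, 15.7% of the exon length overlaps C33A12.19 on the other strand, and whether strand was used in counting is not given in the sources used here. nlp-53 averaged 33.1 ± 1.74 CPM in HBR227 and 23.7 ± 1.37 CPM in N2 (SD, n = 4 each; 0.48 ± 0.07, adjusted p = 0.00138). At all 3 genes the mutant and wild-type libraries did not overlap.

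nlp-15 encodes orcokinin-like peptides, and nlp-12 encodes peptides related to cholecystokinin that are released by the stretch-sensitive neuron DVA and modulate locomotion. nlp-15 had 282, 196, 217 and 212 CPM in HBR227 A to D, against 153, 139, 152 and 160 CPM in N2 A to D. nlp-12 had 239, 145, 162 and 156 CPM in HBR227 A to D, against 124, 109, 119 and 118 CPM in N2 A to D. At both genes HBR227 A was the highest library by a wide margin, and the other mutant libraries still lay above all N2 libraries. nlp-15 rose by 0.59 ± 0.10 (adjusted p = 0.00405) and by 0.47 without HBR227 A. nlp-12 rose by 0.58 ± 0.15 (adjusted p = 0.0230) and by 0.39 without HBR227 A; without N2 B it was not called.

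nlp-49, whose peptides sustain arousal through the receptor SEB-3, was the member with the highest level and rose moderately. It had 449, 438, 482 and 490 CPM in HBR227 A to D, against 376, 337, 375 and 406 CPM in N2 A to D. All mutant libraries lay above all wild-type ones, by a gap about as wide as the spread within a strain, and the log2 fold change was 0.32 ± 0.06 (adjusted p = 0.00756). nlp-40, which encodes intestinal peptides that time defecation through the receptor AEX-2 on a motor neuron, had 168, 125, 133 and 128 CPM in HBR227 A to D, against 115.5, 107, 114 and 113 CPM in N2 A to D. It rose by 0.30 ± 0.09 (adjusted p = 0.0349) and by 0.20 without HBR227 A. With total counts alone, or without HBR227 C or any single N2 library, nlp-40 was not called.

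Among genes with roles in egg laying, nlp-3, whose peptides promote it, and nlp-7, whose peptides inhibit it, were both higher. nlp-3 had 92.3, 96.1, 101 and 99.7 CPM in HBR227 A to D, against 86.2, 80.8, 87.2 and 90.1 CPM in N2 A to D (0.18 ± 0.05, adjusted p = 0.0386). It was the smallest of the called rises, and the call was lost in 6 of the 8 fits that each left out 1 library, and was also lost with upper quartile scaling, with total counts and with the replicate block. nlp-7 averaged 69.7 ± 7.90 CPM in HBR227 and 55.6 ± 3.20 CPM in N2 (SD, n = 4 each; 0.33 ± 0.08, adjusted p = 0.0198), and kept its call in all 8 of those fits.

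The peptides of nlp-47 resemble adipokinetic and gonadotropin-releasing hormones, those of nlp-5 and nlp-6 resemble allatostatins, and those of nlp-38 resemble insect myoinhibitory peptides. nlp-47 rose by 0.22 ± 0.05 (adjusted p = 0.0179), averaging 43.4 ± 0.538 CPM in HBR227 and 37.3 ± 1.56 CPM in N2 (SD, n = 4 each), a call lost without HBR227 C and with total counts. nlp-6 had 59.3, 66.6, 66.6 and 67.0 CPM in HBR227 A to D, against 53.6, 48.9, 53.3 and 52.2 CPM in N2 A to D (0.32 ± 0.06, adjusted p = 0.00479). nlp-5 averaged 11.8 ± 0.380 CPM in HBR227 and 10.8 ± 0.506 CPM in N2 (SD, n = 4 each; adjusted p = 0.299) and was not called. nlp-38 averaged 85.1 ± 0.878 CPM in HBR227 and 78.3 ± 2.79 CPM in N2 (SD, n = 4 each); its difference of 0.12 ± 0.05 was not called with 8 libraries (adjusted p = 0.0915). nlp-1, an olfactory peptide gene of the AWC neurons, had a difference of 0.19 ± 0.07 (adjusted p = 0.0844), and nlp-10 had one of 0.13 ± 0.07 (adjusted p = 0.178). nlp-37, also called pdf-2 for its likeness to pigment-dispersing factor and named after its values were seen, rose by 0.34 ± 0.08 (adjusted p = 0.0145).

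Of the remaining members with a small adjusted p, nlp-52 averaged 14.8 ± 1.12 CPM in HBR227 and 10.6 ± 0.560 CPM in N2 (SD, n = 4 each; 0.49 ± 0.08, adjusted p = 0.00332). nlp-21 rose by 0.36 ± 0.06 (adjusted p = 0.00202), nlp-11 by 0.34 ± 0.06 (adjusted p = 0.00511) and nlp-73 by 0.42 ± 0.08 (adjusted p = 0.00615), and all 4 genes kept their calls in each fit without 1 library. The other members called higher were nlp-62, nlp-43, nlp-81, nlp-55, nlp-69, nlp-61 and nlp-42, at 0.26 for nlp-42 to 0.58 for nlp-62. Of these, nlp-43, nlp-55, nlp-61, nlp-69 and nlp-81 had HBR227 A well above the other mutant libraries, and nlp-62 and nlp-42 did not. nlp-62 averaged 9.03 ± 1.06 CPM in HBR227 and 6.05 ± 1.05 CPM in N2 (SD, n = 4 each), with a log2 fold change of 0.58 ± 0.14 (adjusted p = 0.0167), and is one of the few called genes of low level. Across all 26 calls, 19 held in every fit without 1 library. The 7 that did not were nlp-3, nlp-12, nlp-40, nlp-42, nlp-47, nlp-61 and nlp-62.

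The members with negative values were few, and none of the 11 was called with all 8 libraries and TMM in edgeR. nlp-63 (chromosome II, 10155406 to 10156222, plus strand) had 0.938, 2.12, 1.602 and 1.83 CPM in HBR227 A to D, against 2.79, 2.14, 2.67 and 2.59 CPM in N2 A to D. These were 43, 136, 82 and 92 counts in HBR227 A to D, against 125, 129, 131 and 139 counts in the N2 libraries. The groups nearly met, with HBR227 B just under N2 B, and HBR227 A was the lowest library. The difference was -0.64 ± 0.22 (adjusted p = 0.0660), and it was called lower by DESeq2, with total counts alone, without HBR227 B and without HBR227 A, where it was -0.45. nlp-66 had 13.7, 21.1, 20.6 and 21.1 CPM in HBR227 A to D, against 22.8, 22.9, 23.9 and 22.6 CPM in N2 A to D (-0.27 ± 0.13, adjusted p = 0.164), and was called lower without HBR227 A, where it was -0.14. nlp-79 had a difference of -0.24 ± 0.12 (adjusted p = 0.206). nlp-77, named after its values were seen, had 221, 297, 274 and 286 CPM in HBR227 A to D, against 307, 343, 317 and 293 CPM in N2 A to D, so that HBR227 B overlapped the wild-type range.

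The tested members not described otherwise were not called. They were nlp-16, nlp-19, nlp-41, nlp-46, nlp-48, nlp-50, nlp-51, nlp-56, nlp-57, nlp-59, nlp-67, nlp-70, nlp-71, nlp-78 and nlp-82 with positive values, up to 0.35 ± 0.12 for nlp-70 (adjusted p = 0.0575), and nlp-36, nlp-58, nlp-60, nlp-68 and nlp-76 with negative values, down to -0.14 ± 0.07 for nlp-36 (adjusted p = 0.163). In nlp-46, nlp-78 and nlp-76 other annotated genes overlap 20%, 16.8% and 9.75% of the exon length, so part of their counts could come from those genes.

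**Figure D4:**
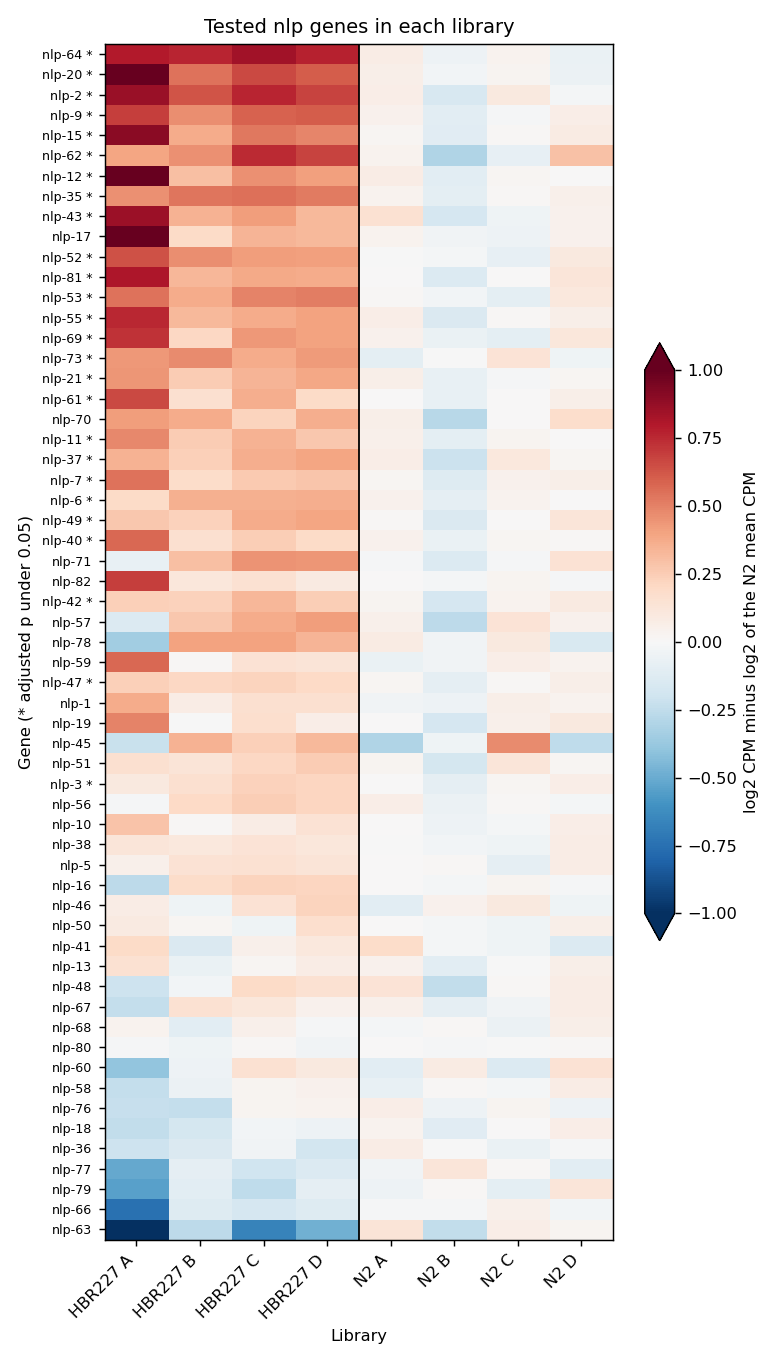
Log2 CPM in each library minus the log2 of the gene's mean CPM in N2 (colour, cut at -1 and 1), for the 59 tested nlp genes in rows and the 8 libraries in columns, HBR227 left of the line and N2 right of it; an asterisk marks called genes. Most rows are red in all 4 HBR227 columns, and HBR227 A is the darkest column for nlp-20, nlp-12 and nlp-17 and the most blue for nlp-63.

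HBR227 A moved the members in both directions. Its log2 CPM minus that of the mean of HBR227 B to D ran from -0.98 at nlp-63 to 0.72 at nlp-17, with a median of 0.0097 over the tested members and 0.019 over all genes tested. It lay at least 1.25-fold above that mean at 13 members, at least 1.25-fold below it at 11, and in between at 35. With all 8 libraries 9 of the 13, 0 of the 11 and 17 of the 35 were called higher, where 11.2% of all genes tested were. HBR227 A enters both this grouping and the fold changes. nlp-17, named after its values were seen, had 125, 71.2, 78.7 and 78.0 CPM in HBR227 A to D, against 63.9, 60.9, 60.1 and 64.2 CPM in N2 A to D. All mutant libraries were higher, but with A among them the difference of 0.50 ± 0.16 was not called (adjusted p = 0.0587), while without A it was 0.29 ± 0.04 and was called.

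Levels between genes were compared per kilobase of exon, for the 57 members with a gene model in the annotation. nlp-77, which averaged 269 CPM in HBR227 and 315 CPM in N2, has no gene model there and could not be ranked. nlp-49 had 774 ± 41.9 CPM per kb in HBR227 and 622 ± 47 CPM per kb in N2 (SD, n = 4 each), well above every other ranked member in both strains. nlp-12 followed with 398 ± 97.5 CPM per kb in HBR227 and 267 ± 13.7 CPM per kb in N2. nlp-15 had 305 ± 51.3 CPM per kb in HBR227 and 203 ± 11.6 CPM per kb in N2, and lay below nlp-12 in every library of both strains. nlp-18 had 253 ± 18.1 CPM per kb in HBR227 and 275 ± 14.9 CPM per kb in N2. It lay below nlp-12 in each HBR227 library and above it in each N2 library, though only just in N2 A. nlp-80 had 208 ± 3.35 CPM per kb in HBR227 and 211 ± 1.85 CPM per kb in N2, and stood at 109 to 113 CPM in HBR227 libraries and 111 to 114 CPM in N2 libraries (log2 fold change -0.020 ± 0.041, adjusted p = 0.766); it was called lower with total counts alone. These same 5 genes led when coding length was used.

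**Figure D5:**
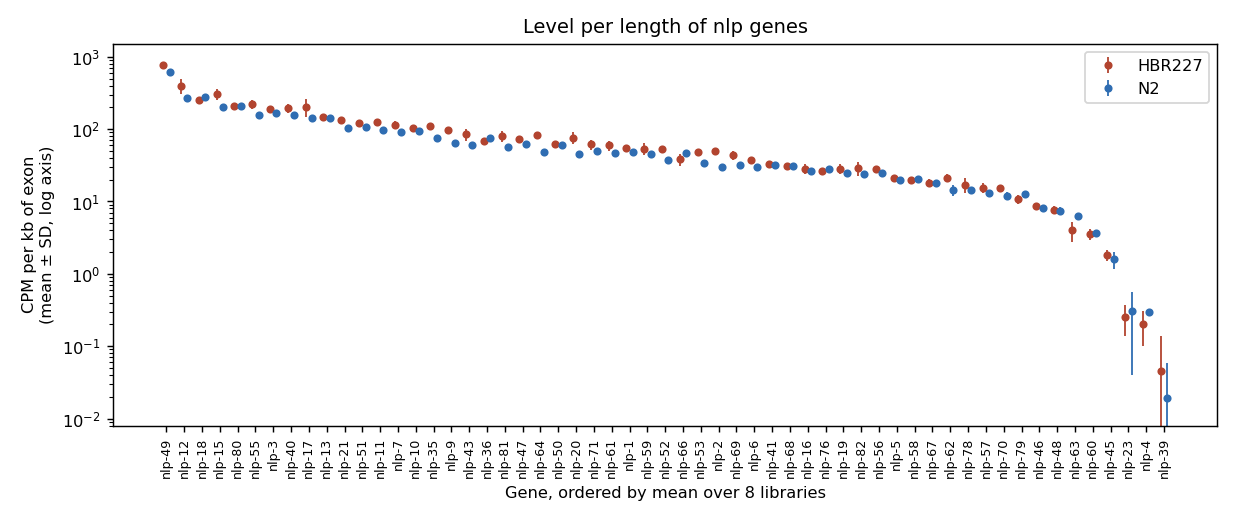
Mean CPM per kb of exon with SD (vertical log axis) in HBR227 and N2, n = 4 libraries each, for the 57 nlp genes with a gene model, ordered by their mean over the 8 libraries. Levels span from 774 CPM per kb for nlp-49 in HBR227 to under 1 CPM per kb for nlp-23, nlp-4 and nlp-39, whose lower error bars leave the axis where the SD exceeds the mean.

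The lower end held the 3 untested members. nlp-39, named with nlp-4 after their values were seen, had 2, 0, 0 and 0 counts in HBR227 A to D, against 0, 0, 0 and 1 in N2. A count of 0 allows up to 3 counts, which is 0.0469 to 0.0669 CPM in these libraries. nlp-4 had 9, 9, 2 and 7 counts in HBR227 A to D, against 9, 12, 9 and 10 counts in the N2 libraries. Level bears on how often a gene was called. Of 39 tested members with a mean of at least 20 CPM 23 were called higher, where 20.9% of all genes at that level were, with a median log2 fold change of 0.32 and a median SE of 0.070 over the members. Of 20 members below that level 3 were called higher, where 5.73% of all genes there were, with a median log2 fold change of 0.14 and a median SE of 0.12 over the members.

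Together the 62 members held 0.329% ± 0.0106 of the counts in HBR227 libraries and 0.298% ± 0.00437 in N2 libraries (SD, n = 4 each). Their summed CPM was 3413 ± 165 in HBR227 and 2876 ± 92.8 in N2, a ratio of 1.19, where the shares of unscaled counts gave 1.103. The sums lean on few genes, since nlp-49, nlp-77, nlp-15, nlp-12 and nlp-18 held 37.7% of the members' counts. The members with coordinates are spread over all chromosomes, and calls were found on each. On chromosome X 8 of 15 tested members were called higher, on I 4 of 4, on II 2 of 10, on III 3 of 7, on IV 4 of 10 and on V 2 of 8. The 5 members without coordinates are left out of these counts. Of them nlp-37, nlp-42 and nlp-73 were called higher, and nlp-38 and nlp-77 were not called. Among all genes tested the share called higher was between 10.2% on I and 12.8% on X.

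Genes that process the precursors, release the peptides or receive them were also examined. Of 11 peptide processing genes, 6 were called higher, 0 lower, and 5 were not called, where 11.2% of all genes tested were called higher and 10.4% lower. Most of these 11 genes, and all 6 called, had a mean of at least 20 CPM, a level at which 20.9% of all genes were called higher. kpc-1, a furin-like convertase, averaged 254 ± 7.57 CPM in HBR227 and 210 ± 10.4 CPM in N2 (SD, n = 4 each; 0.27 ± 0.05, adjusted p = 0.00442). pghm-1, which carries out the first step of amidation, averaged 550 ± 19.6 CPM in HBR227 and 461 ± 21.4 CPM in N2 (0.25 ± 0.05, adjusted p = 0.00635). sbt-1, the chaperone of the main neuropeptide convertase EGL-3, averaged 630 ± 23.3 CPM in HBR227 and 535 ± 22.6 CPM in N2 (0.24 ± 0.05, adjusted p = 0.00807). The others called were egl-3 itself, the carboxypeptidase gene egl-21 and the amidation gene pgal-1, at 0.21 to 0.27. Without HBR227 A 6 were called higher and 0 lower, where the shares over all genes were 21% and 23.3%.

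Of 12 genes of dense-core vesicle formation and release, 3 were called higher and 1 lower, where 11.2% of all genes tested were called higher and 10.4% lower. Most of these 12 genes also had a mean of at least 20 CPM, where 20.9% of all genes were called higher. Without HBR227 A 6 were called higher and 1 lower, where the shares over all genes had also grown, to 21% higher and 23.3% lower. ida-1, a dense-core vesicle membrane protein, averaged 1248 ± 58.2 CPM in HBR227 and 984 ± 49.998 CPM in N2 (SD, n = 4 each; 0.34 ± 0.05, adjusted p = 0.00217). pkc-1, a protein kinase C that promotes peptide release, rose by 0.25 ± 0.06 (adjusted p = 0.0125), a call lost with total counts alone, and the Rab2 gene unc-108 was the third called. hid-1, needed to keep cargo in these vesicles, went the other way, with 62.0 ± 1.98 CPM in HBR227 and 75.1 ± 1.79 CPM in N2 (SD, n = 4 each; -0.28 ± 0.05, adjusted p = 0.00317).

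Of 11 receptor genes with a known nlp ligand, 2 were called higher and 0 lower, where 11.2% of all genes tested were called higher. Most of these 11 genes, and the 2 called, had a mean under 20 CPM, a level at which 5.73% of all genes were called higher. Without HBR227 A 5 were called higher and 0 lower, where 21% of all genes were called higher. gnrr-3, a receptor for nlp-2 peptides, averaged 3.96 ± 0.360 CPM in HBR227 and 3.03 ± 0.216 CPM in N2 (SD, n = 4 each; 0.38 ± 0.11, adjusted p = 0.0378), a call lost with total counts, without the filter on low counts, with the replicate block, and without HBR227 C, HBR227 D or any single N2 library. aex-2, the receptor for nlp-40 peptides, averaged 8.18 ± 0.328 CPM in HBR227 and 6.34 ± 0.397 CPM in N2 (0.37 ± 0.09, adjusted p = 0.0158), and lost its call without HBR227 D. The receptor of nlp-49 peptides, seb-3, averaged 23.9 ± 1.34 CPM in HBR227 and 23.1 ± 0.527 CPM in N2 and was not called (adjusted p = 0.656), and neither were the receptors of nlp-12 peptides, ckr-1 (adjusted p = 0.0717) and ckr-2 (adjusted p = 0.301). Without HBR227 A, ckr-1 (0.28, adjusted p = 0.00736) and ckr-2 (0.27, adjusted p = 0.000525) were called higher, and seb-3 was not called.

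Markers of other tissues were detected in every library, and no marker was at 0 counts in any. The marker calls below stand beside shares over all genes tested of 11.2% called higher and 10.4% lower. Of 5 glial markers 2, vap-1 and mls-2, were called lower, and the sum over all 5 was 108.4 to 141 CPM in HBR227 libraries and 143 to 166 CPM in N2 libraries. Of 5 epidermal markers 1, dpy-7, was called lower, and of 5 intestinal markers 1, ges-1, was called higher, with sums of 1648 to 2055 CPM in HBR227 libraries and 1591 to 1889 CPM in N2 libraries for the intestine. Body wall muscle, pharynx and germline markers had 0 calls of 5, 4 and 5. Without HBR227 A, 3 of 5 intestinal markers, ges-1, ifb-2 and act-5, and 1 pharynx marker, myo-1, were called higher, and 1 muscle marker, unc-27, and 1 germline marker, glh-2, were called lower, while the glial and epidermal calls were as before. The shares over all genes had also grown without HBR227 A, to 21% higher and 23.3% lower. HBR227 A had the lowest sum among mutant libraries for neuron, intestine, muscle, pharynx, epidermis and glia markers, and the highest for germline, at 136 CPM, where N2 libraries had 54.3 to 71.4 CPM. The part of these differences in the members' values was not tested.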

How the data were processed

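Per the labels' protocols, RNA was extracted from whole larvae with Trizol after bead beating and sequenced from Illumina libraries. The authors deposited 1 table of raw counts per gene for 8 libraries, with no scaling. Bowtie 0.12.2 and the builds WBcel235 and mm8 are named without a role, per the submitters' processing notes; the worm build of these is WBcel235. How reads were counted, with or without strand, with which annotation and with what use of multiple matches, is not given in the sources used here.

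From the table, 11 rows whose names had become dates (0.0321% to 0.0357% of a library) entered neither library sizes nor tests. Genes were kept by filterByExpr (minimum count 10). They were tested with edgeR 4.0.16 in R 4.3.3 (TMM, robust quasi-likelihood F test, all 8 libraries, no covariate), with Benjamini-Hochberg adjustment over the 17522 genes kept. SE is the absolute log2 fold change over the square root of F. Counting depth was 43.6 to 65.0 M (mega-counts) per library, and the SE of tested members was 0.041 to 0.22 on the log2 scale. Libraries of a strain were no repeats of each other (chi-square per degree of freedom 3.70 or more).

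Coordinates and exon lengths are those of Ensembl release 115 (WBcel235, 1-based); 5 members, nlp-37, nlp-38, nlp-42, nlp-73 and nlp-77, had no match and are given without them, and nlp-10 was matched through RefSeq coordinates. Sequences were not used here. Genes named in full were up to 12 called members with the smallest adjusted p, members called lower, the 3 largest rises and falls, the 5 highest levels per length, members with a known role, and up to 3 called genes of each pathway list. The members and lists were chosen with earlier results of these data known. Alternatives were other scalings, limma voom (limma 3.58.1), DESeq2 1.42.0, other filters and thresholds, the replicate letter as a block and leaving out each library. Figures were drawn with matplotlib 3.10.9.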

Additional observations from a re-analysis of the deposited data

Results flagged for a closer look

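Over the named members, 56 groups of 4 libraries were examined for a library far from the other 3 (gap over range above Dixon's critical value of 0.829), and 4 values stood out, where chance gives about 1 in 20 groups. The nlp-6 level in HBR227 A was 59.3 CPM, below 66.6 to 67.0 CPM in the other HBR227 libraries. The nlp-66 level in HBR227 A was 13.7 CPM, below 20.6 to 21.1 CPM in the other HBR227 libraries. nlp-66 in N2 C was at 23.9 CPM, above 22.6 to 22.9 CPM in the other N2 libraries, a gap that is small beside the level. nlp-23 in N2 B was at 0.349 CPM, which is 21 counts, above 0.0669 to 0.112 CPM in the other N2 libraries. In 2 of these 4 the library apart was HBR227 A, which stood apart across all genes too.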

How the results depend on the processing

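The count of members called higher was 26 with DESeq2 size factors, upper quartile scaling, without a filter on low counts or with a minimum of 1 CPM in 4 libraries, 27 with limma voom, 28 with DESeq2 and 21 with total counts alone. It was 14 at an adjusted p under 0.01 and 0 in edgeR's test against a fold change of 1.5, where 3 passed at an unadjusted p under 0.05; all genes called were 1722 and 98 under these settings. Leaving out 1 library gave 20 to 36 higher members, 0 to 3 lower members, 2423 to 7906 genes called in all and a members' median of 0.22 to 0.28. The members' median was 0.13 with total counts alone, where 5 members, nlp-18, nlp-36, nlp-63, nlp-77 and nlp-80, were called lower. Under that setting 1174 of 17522 genes were called higher and 3111 lower. DESeq2 called 1 member lower, where 2115 of 28167 genes were called lower. The cause of the differences between settings was not tested. With the replicate block 24 members were higher, all among the 26, and 0 lower. The letters showed no clear pairing of the samples. Deviations from the strain mean of libraries with the same letter correlated at -0.014 for A, 0.14 for B, 0.034 for C and -0.014 for D. Of 4 HBR227 libraries 1 correlated best with the N2 library of its letter, as did 2 of 4 N2 libraries with the HBR227 library of theirs. These values cannot exclude pairing, since HBR227 A, which stood apart, enters the HBR227 mean. Over the named members, 486 values under alternatives comprised 436 on the same side of the threshold, 41 that lost and 9 that gained a call. The sign of the log2 fold change, called or not, changed in 0 of them. Of the 3 untested members, nlp-4, nlp-23 and nlp-39, no library held more than 21 counts, which was too few for the filter on low counts when all 8 libraries were used.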
